A study of Gossypium hirsutum with 3 samples.

Results

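The 103 genes described here are the core of the blue co-expression module of allotetraploid cotton (Gossypium hirsutum), leaving transcription factors aside. They were chosen from the study's list of 442 blue-module genes as those with an absolute module membership (kME) above 0.9 that are absent from its list of subgenome-biased transcription factors (TFs). Of the 126 module genes above that threshold, 23 are listed TFs and are called hub TFs here. The study reports a slightly smaller number of hub TFs at this threshold, and the reason for this was not examined. The 288 other non-TF genes of the module, all at or below the threshold, are called the outer genes. "Non-TF" means only that a gene is not in the list of biased TFs. The 103 core genes are a small share of the 70478 genes with a value in each library.

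The expression values come from RNA-seq of leaves of 20-day-old TM-1 plants, with no treatment, in 3 replicate libraries of this single condition. TM-1 is a G. hirsutum cultivar whose nucleus holds an A and a D subgenome, so that most genes have a counterpart, or homeolog, in the other subgenome. The labels do not say whether the libraries came from separate plants, so the spread between them may be partly technical. Values are FPKM, read fragments scaled to the length of the gene and to the depth of its library, and can therefore be compared between genes.

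A co-expression module groups genes whose levels go up and down together across tissues, and its eigengene is the profile that summarizes them. The kME of a gene is the correlation of its profile with that eigengene, so genes of high kME follow the shared profile most closely and are often called hubs. The study built its network from genes biased between homeologs, over a set of tissues, and described the blue module as leaf-related. In a polyploid, the copies of a gene that came from different ancestors can diverge in level, and the more highly expressed copy is then said to be biased. The bias was called on these same leaf libraries, so an expressed level and a gap to the homeolog were conditions of entering the module and are no findings about its genes. The methods do not say whether these leaf libraries were also among the tissues behind the kME. No gene name could be attached to the members, because 0 identifiers of the files occur in the reference gene table of another assembly. They are therefore given by identifier, which carries the subgenome letter, the chromosome number and the gene number, and no role of a single member is stated. For the same reason leaf marker genes could not be looked up by name to check the tissue label.

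The libraries were close in depth and in order of genes. Among genes with FPKM above 0 and below 0.05 in both libraries, where a read sets the value, the commonest ratio was 0.96 for replicate 1 to replicate 2 (74 of 344 genes, ratios rounded to 2 decimals), 0.99 for replicate 1 to replicate 3 and 1.04 for replicate 2 to replicate 3. Spearman's correlation between libraries was 0.983 to 0.989 over the 66434 chromosome genes and 0.992 to 0.995 over the core genes. These gene sets were not matched for level, since 26375 of the chromosome genes but 0 core genes had a mean FPKM below 1. Genes are not independent replicates, and the absolute number of reads was not used.

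The mean FPKM was at least 1 in all 103 core genes, which entry into the network favoured, but their levels spread over more than 3 orders of magnitude on the FPKM scale. The median FPKM of the core genes was 23.9, 21.7 and 24.8 in replicates 1, 2 and 3, or 23.5 ± 1.61 (SD, n = 3 libraries). The quartiles of the mean FPKM were 11.1 and 83.8, the lowest core gene was at 1.42 and the highest at 3908. By mean FPKM, 24 core genes were between 1 and 10, 57 between 10 and 100, and 22 at 100 or more, 5 of them above 1000. Single libraries put 98.7% ± 0.561 (SD, n = 3) of the core genes at FPKM 1 or more and 77.3% ± 0.561 (SD, n = 3) at 10 or more. In bulk leaf, a lower value can mean fewer cells that express a gene or less RNA per cell, and these cannot be told apart.

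**Figure D1:**
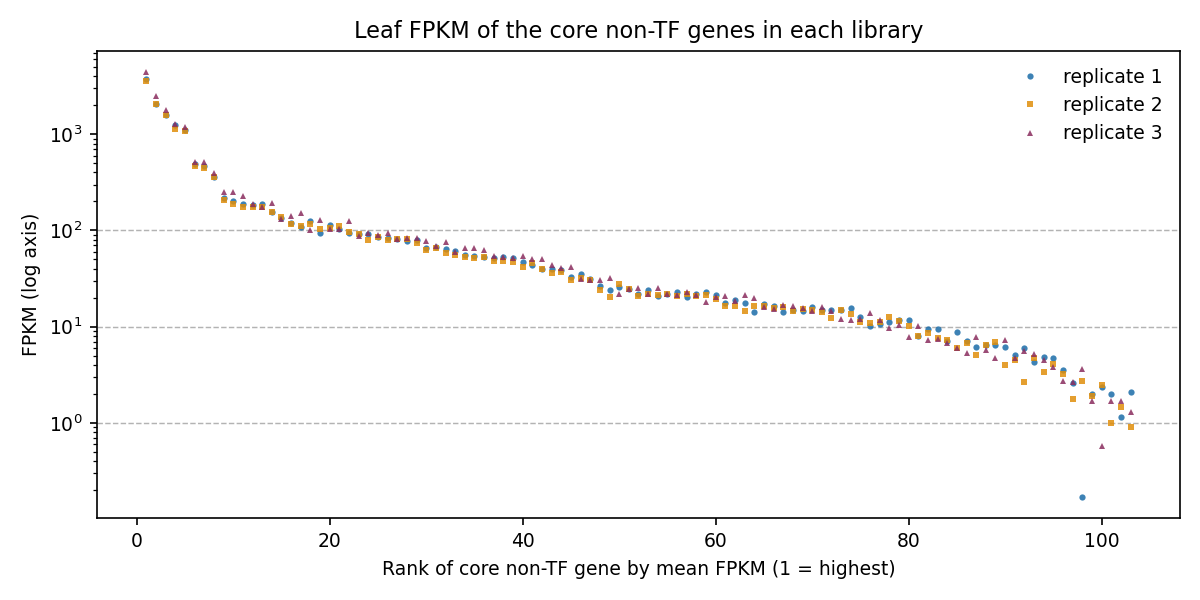
FPKM (log axis) of each of the 103 core non-TF genes in the 3 libraries, with genes ranked by mean FPKM from the highest on the left, and dashed lines at FPKM 1, 10 and 100. The libraries lie almost on each other down to an FPKM of about 10, and 4 genes at the right end have a value below 1 in 1 library.

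At the top, 5 core genes stood apart, and the next was lower by more than a factor of 2. Gh_A12G1255 had FPKM of 3748, 3541 and 4435 in replicates 1, 2 and 3, and 9 chromosome genes had a higher mean. Gh_A09G2303 had 2044, 2038 and 2513, and Gh_D07G0293 had 1579, 1578 and 1768. These genes were highest in replicate 3 and lowest in replicate 2. Gh_A05G3949 followed with 1241, 1132 and 1264, and Gh_A11G2206 with 1093, 1074 and 1203. In every library these 5 genes ranked above all the other core genes. They held 64.2% ± 0.776 (SD, n = 3) of the FPKM sum of the core genes and 1.04% ± 0.0564 (SD, n = 3) of the sum over all genes. The whole core held 1.62% ± 0.0694 (SD, n = 3) of the sum over all genes. The next members, from Gh_D13G0786 at a mean of 491 FPKM through Gh_D01G1269 at 475, Gh_D04G1924 at 371, Gh_D08G0062 at 225 and Gh_D13G2387 at 213, were all in the D subgenome, whereas 4 of the first 5 were in the A subgenome.

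The lowest core genes were near the study's limit for expressed genes, and most of them varied more between libraries than the median core gene. Gh_A05G0936 had FPKM of 2.07, 0.901 and 1.31 in replicates 1, 2 and 3. Gh_D08G1794 had 1.16, 1.48 and 1.68, and Gh_A07G0919 had 1.97, 0.998 and 1.67. Values of these genes crossed each other between libraries, so their order is not fixed beyond the replicate spread. Gh_A08G1058 had 2.36 and 2.50 in replicates 1 and 2 and 0.571 in replicate 3. Gh_D04G1346 was steadier, at 1.98, 1.88 and 1.68.

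Replicate spread was otherwise small. The highest of the 3 values was less than 1.5 times the lowest in 94 of the 103 core genes, and more than 2 times the lowest in 4. The largest spread was in Gh_D12G1817, with 0.171 FPKM in replicate 1 and 2.74 and 3.66 in replicates 2 and 3, so that its mean of 2.19 FPKM became 3.20 without replicate 1 and 1.46 without replicate 3. Gh_A03G0771 was low in replicate 2 alone, with 5.96, 2.66 and 5.61. Together with Gh_A08G1058 these had the largest SD on the log2(FPKM + 1) scale. The median coefficient of variation was 7.12% for core genes at a mean FPKM of 10 or more, against 8.91% for the other expressed chromosome genes at such levels, and 17.9% against 15.3% below 10. The median SD over libraries on the log2(FPKM + 1) scale was 0.13 for the core genes and 0.15 for the 39956 other expressed genes. This order was the other way round when each library was first centred on the median of the expressed genes, with 0.16 for the core genes and 0.15 for the others.

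To see how the core compares with the rest of its module, group medians on the log2(FPKM + 1) scale were compared within each library. The core genes were higher than the outer genes by 0.72, 0.62 and 0.81 in replicates 1, 2 and 3, a difference of 0.72 ± 0.09 (SD, n = 3). The medians were 23.5 ± 1.61 FPKM for the core genes and 13.9 ± 0.202 FPKM for the outer genes (SD, n = 3 each). The difference was above 0 in 3 of 3 libraries. Its SD, like that of the other gaps between gene groups, measures spread between libraries of 1 condition and not between genes. The quartiles of the mean FPKM were 11.1 and 83.8 in the core and 5.43 and 28.8 in the outer genes, so the groups overlap. The difference of medians was 1.79 when the kME threshold was set at 0.95, which leaves 18 core genes. The exact sign-flip permutation test over libraries gave a two-sided p of 0.25, which is the smallest that 3 libraries allow. This p was the same for each of the 4 comparisons made and stayed at 0.25 after Benjamini-Hochberg adjustment, so none could pass a threshold of 0.05 in this test. In the core, 77.3% ± 0.561 of the genes were at FPKM 10 or more, against 58.7% ± 0.601 of the outer genes (SD, n = 3 each). By mean FPKM, 21.4% of the core genes and 7.99% of the outer genes were at 100 or more, yet the highest gene of both groups together, at 12113 FPKM, was an outer one.

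The core was also above the other expressed chromosome genes, those with a mean FPKM of 1 or more, as were the outer genes. This gap is no finding about the core alone, since module genes were chosen for bias in these libraries. In all 45 listed pairs the module gene was the higher copy, while the other expressed genes include lower copies. Genes also had to be expressed in at least 1 copy of a pair to enter the network. The difference of medians was 1.63 ± 0.16 (SD, n = 3) on the log2(FPKM + 1) scale, with 23.5 ± 1.61 FPKM in the core and 6.91 ± 0.408 FPKM in the others. Of the core genes, 84 had a mean above the median of the others, 44 were in the top 10% of expressed genes and 8 in the top 1%. The hub TFs, which pass the same kME threshold, had a median of 19.3 ± 0.382 FPKM (SD, n = 3), and the core was above them by 0.26 ± 0.09 (SD, n = 3) on the log2(FPKM + 1) scale. This gap was above 0 in 3 of 3 libraries at the threshold of 0.9. It shrank to 0.01 at a kME threshold of 0.85 (157 core genes, 31 hub TFs), where its direction differed between libraries. At a threshold of 0.95 it was 1.64, but this rests on 18 core genes and 8 hub TFs. The 23 hub TFs ended at 166 FPKM, far below the highest core genes.

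**Figure D2:**
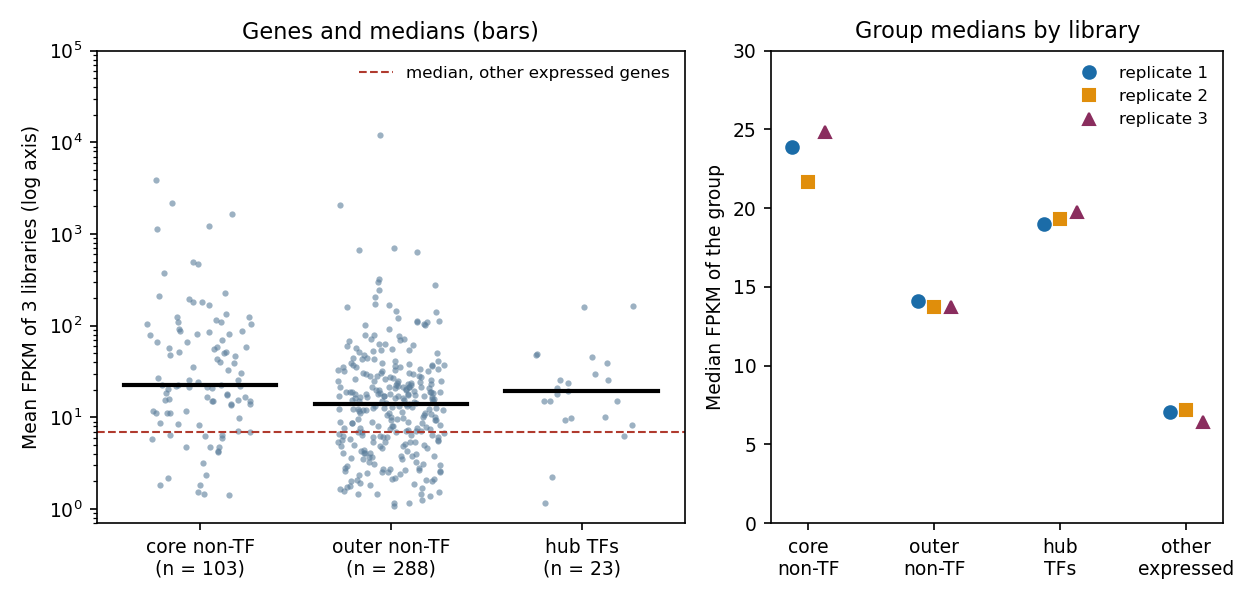
Left, mean FPKM over 3 libraries (log axis) of each core non-TF gene, outer non-TF gene and hub TF, with black bars at the group medians and a dashed line at the median of the other expressed genes. Right, median FPKM of each group in each library, where the core lies at 21.7 to 24.8, the outer genes at 13.7 to 14.1, the hub TFs at 19.0 to 19.7 and the other expressed genes at 6.45 to 7.21.

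Within the core, the correlation of kME with leaf level was weak. Across the 103 core genes, Spearman's rho between kME and FPKM was 0.0790, 0.0741 and 0.0731 in replicates 1, 2 and 3. Pearson's r on the log2(FPKM + 1) scale was 0.0657, 0.0661 and 0.0724. These describe genes measured in shared libraries. The core holds only kME above 0.9 by selection, so weak values within this narrow range cannot show that no relation exists. The 5 members of highest kME lay on both sides of the core median. Gh_D09G0565 had FPKM of 11.2, 12.5 and 9.69, and Gh_D10G2261 had 5.05, 4.54 and 4.76. Both lay below the core median in every library, as did Gh_A09G1820, with 6.14, 4.01 and 7.21. Gh_A05G0722, with 33.1, 30.2 and 42.0, and Gh_D12G1024, with 115, 107 and 103, lay above it in every library. Over core and outer genes together, 391 in all with a wider range of kME, rho was higher, at 0.242 ± 0.0157 (SD, n = 3). Over the 288 outer genes alone it was 0.127 ± 0.0137 (SD, n = 3).

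Divided into 4 parts by kME, the core showed most of what relation there was at its top. The median FPKM was 23.9 ± 1.39 (SD, n = 3 libraries) in the 26 genes of lowest kME, 21.3 ± 0.248 in the next 26, 26.1 ± 0.371 in the following 26 and 54.3 ± 4.15 in the 25 genes of highest kME. In the last part the library medians were between 51.4 and 59.1, above those of the other parts, which did not exceed 26.4. The numbers of genes at FPKM 10 or more hardly differed, with 20, 19, 20 and 20. The highest part held 6 genes at 100 or more and the part before it 9. This division was not tested.

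**Figure D3:**
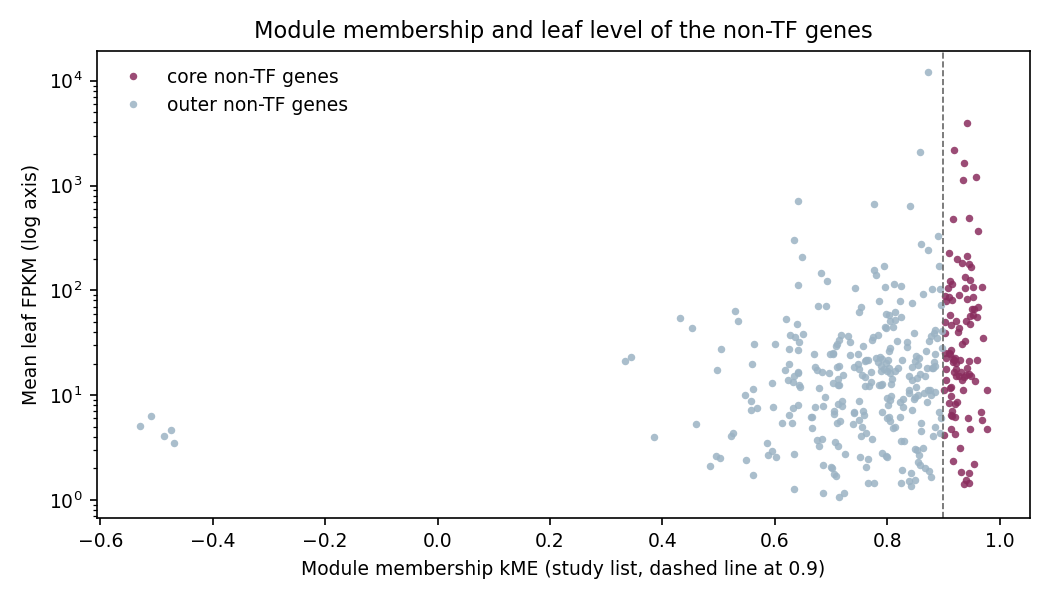
Mean leaf FPKM over 3 libraries (log axis) against kME for the 103 core and 288 outer non-TF genes, with a dashed line at the kME threshold of 0.9. Core genes spread from 1.42 to 3908 FPKM with little order by kME, and 5 genes of the module have a negative kME, none of them in the core.

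Genes just inside and just outside the threshold had overlapping levels. The 5 core genes nearest above it were Gh_A12G0020, Gh_D12G0932, Gh_A10G2263, Gh_D12G1608 and Gh_A11G2938, with mean FPKM of 11.1, 4.20, 38.8, 88.4 and 50.2. The 5 outer genes nearest below it were Gh_D10G1437, Gh_D11G3079, Gh_A12G1242, Gh_D01G0727 and Gh_A02G1455, with mean FPKM of 41.2, 28.4, 6.07, 72.0 and 102. No test was made of this difference.

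The core held 58 genes of the D subgenome and 45 of the A subgenome, and none on unplaced scaffolds. The D share was 56.3% in the core, against 48.6% among the outer genes (140 D and 148 A) and 50.9% among expressed chromosome genes. Expressed genes are not the pool of biased genes from which the module was drawn. The study counts more D-biased than A-biased pairs in leaf, and the core share was not tested against that pool. Levels differed little between the subgenomes. The median FPKM was 26.4 ± 1.35 for the D genes and 21.7 ± 0.393 for the A genes (SD, n = 3 each). On the log2(FPKM + 1) scale D was higher than A by 0.19, 0.29 and 0.32 in replicates 1, 2 and 3, or 0.27 ± 0.07 (SD, n = 3), with the same exact p of 0.25, but with means in place of medians the sign turned, to -0.058, and the A genes include 4 of the 5 highest members. The shares at FPKM 10 or more were 77.6% in D, the same in every library, and 77.0% ± 1.28 (SD, n = 3) in A. The gap between core and outer genes was present on both sides, at 0.88 ± 0.08 within D and 0.61 ± 0.04 within A (SD, n = 3 each), and the difference between these gaps was not tested.

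Core genes occurred on 25 of the 26 chromosomes. D12 held the most, with 8 genes, followed by D08 and A11 with 7 each. D03 held 0 core genes, although it has 1138 expressed genes and 2 outer genes. Relative to expressed genes, D12 had 4.52 core genes per 1000, D04 had 4.32, D06 4.27 and A10 4.25, while A03 had 0.703 and D11 0.482. Such differences rest on 0 to 8 genes per chromosome and were not tested. The 8 genes of D12 ranged from Gh_D12G1817 at a mean of 2.19 FPKM to Gh_D12G1024 at 108, so that a chromosome rich in core genes was not one of uniform level. The 5 highest core genes lay on 5 different chromosomes, A12, A09, D07, A05 and A11.

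Few members lay close together. On the A-subgenome chromosomes for which gene starts were at hand, the start increased with the gene number in 1908 of 1989 steps. Other chromosomes, D08 and A11 among them, were not checked, so closeness is given in gene numbers only. Only 2 pairs of core genes were within 15 gene numbers of each other. Gh_D08G0051 and Gh_D08G0062 are 11 numbers apart and were both highly expressed, with FPKM of 109, 111 and 151 for Gh_D08G0051 and 216, 207 and 251 for Gh_D08G0062. Both were highest in replicate 3. Gh_A11G2924 and Gh_A11G2938 are 14 numbers apart and differed in level, with 6.40, 6.50 and 5.68 for Gh_A11G2924 and 51.7, 47.1 and 51.9 for Gh_A11G2938. Core genes were also set against the genes with adjacent numbers. In 70 of 103 core genes (68.0%), the lowest of the 3 values exceeded every value of both adjacent gene numbers. This held for 57.7% of the outer genes and 43.3% of the other expressed genes. These shares were not matched for level, and the median FPKM of these groups was 23.5, 13.9 and 6.91 in the same order. The neighbours themselves had a median mean FPKM of 3.34 for the core genes, 2.26 for the outer genes and 2.96 for the other expressed genes. Of these neighbours, 36.4%, 37.6% and 35.4% were below FPKM 1. By the median the core's neighbours were not lower than those of other expressed genes, while a slightly larger share of them was below FPKM 1.

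Whether homeologs occur together in the module was examined with the pair lists at hand, which cover chromosome A01 and part of A02, 2580 pairs. Of the 442 module genes, 45 had a listed homeolog, and 0 of these homeologs were themselves in the module. If only the biased, higher copy of a pair entered the network, this 0 follows from its construction and is no finding about the module. The module gene was the higher copy on mean FPKM in 45 of 45 pairs, and in each of them all its values were above those of the homeolog. In the core, 10 genes had a listed homeolog, 6 of the D and 4 of the A subgenome, and the homeologs of the other 93 were not analysed here. All 10 core genes were above their homeolog without overlap between the 3 libraries, and in all 10 the mean was at least 2 times that of the homeolog. Among all 1999 listed pairs with an expressed copy, the copies did not overlap in 62.4% and differed at least 2 times in 27.7%. Since the network was built from genes biased in these libraries, this gap is part of how the members were chosen, and it was not tested. Reads that match both copies could have been assigned to either.

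In 2 pairs the homeolog was listed at 0 in every library. Gh_A02G0036 had FPKM of 14.1, 15.8 and 16.7, with its homeolog Gh_D02G0049 at 0. Gh_D01G0479 had 3.52, 3.23 and 2.73, with Gh_A01G0468 at 0. Another homeolog was nearly silent. Gh_D02G1102 had 6.18, 5.08 and 7.81, against 0.343, 0.298 and 0.712 for Gh_A02G0922, a ratio of 14.1 between the means that varied between 11.0 and 18.0 in single libraries.

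In the other 7 pairs both copies were expressed. Gh_A01G1910 had FPKM of 51.9, 48.0 and 53.6, against 4.66, 4.30 and 4.50 for Gh_D01G2169, and its ratio was steady at 11.1 to 11.9. Gh_A02G0706 had 35.0, 31.8 and 31.1, against 10.9, 10.9 and 11.6 for Gh_D02G0750, a ratio of 2.93 between means. Gh_D01G0363 had 103, 111 and 103, against 41.0, 43.8 and 39.4 for Gh_A01G0323. Here both copies were highest in replicate 2, and the ratio stayed between 2.50 and 2.60. Gh_D01G1269, the most abundant of these members, had 467, 445 and 512, against 216, 202 and 248 for Gh_A01G2102. Both copies followed the same order of libraries, and the ratio lay between 2.06 and 2.20. The homeolog of this core gene, at a mean of 222 FPKM, was itself above most core genes while not being in the module.

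The remaining 3 pairs were at moderate levels. Gh_D01G0673 had FPKM of 18.8, 16.4 and 18.3, against 7.20, 7.60 and 7.93 for Gh_A01G0653. Gh_A02G1470 had 17.3, 16.3 and 16.0, against 8.56, 5.72 and 7.80 for Gh_D03G0242, a homeolog on a chromosome of another number. Gh_D01G1839 had 14.0, 16.4 and 20.0, against 7.66, 7.33 and 8.45 for Gh_A01G1622. In these 3 pairs the ratio of the means was 2.36, 2.25 and 2.15, and in single libraries it lay between 1.83 and 2.86, with no overlap between the copies.

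**Figure D4:**
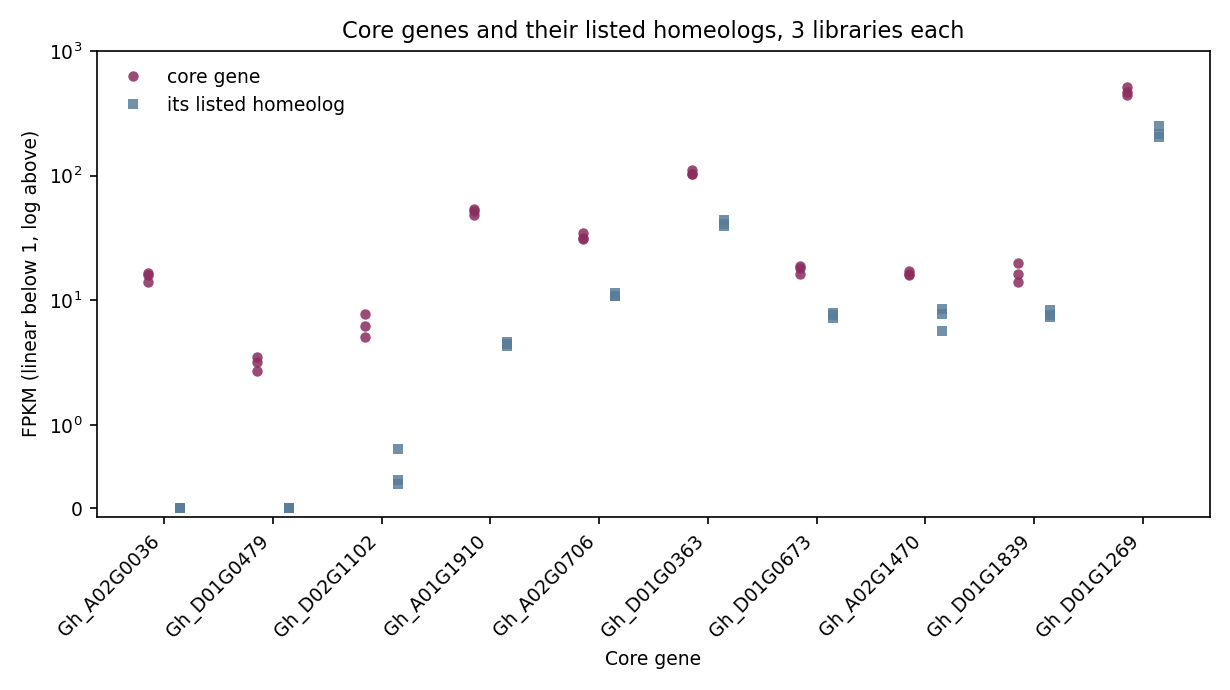
FPKM of the 10 core genes with a listed homeolog (circles) and of that homeolog (squares), 3 libraries each, on an axis that is linear below 1 and logarithmic above. Every core gene lies above its homeolog in every library, from 2 pairs with the homeolog at 0 to Gh_D01G1269, whose homeolog is at 202 to 248 FPKM.

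The highest and lowest values of the core genes were unevenly spread over the libraries, a pattern examined after seeing the data. Replicate 3 gave the highest of the 3 values in 61 core genes (59.2%), replicate 1 in 33 and replicate 2 in 9 (8.74%). Replicate 2 gave the lowest value in 57 core genes (55.3%). Among the other expressed genes, replicate 3 was highest in 32.3% and replicate 2 in 37.9%, and replicate 2 was lowest in 28.1%. The outer genes were in between, with 44.4% highest in replicate 3 and 35.4% lowest in replicate 2. The shifts were small, since the median ratio of replicate 3 to replicate 2 was 1.11 for the core genes, 1.02 for the outer genes and 0.945 for the other expressed genes.

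Level moved with this order of libraries. Among genes at a mean FPKM of 100 or more, replicate 3 was highest in 17 of 22 core genes (77.3%), 78.3% of the outer genes and 78.2% of the other expressed genes, so the core did not stand out there. Among genes between 10 and 100, replicate 3 was highest in 37 of 57 core genes (64.9%), against 46.6% of the outer genes and 43.2% of the others. In the same range, replicate 2 was lowest in 34 of 57 core genes (59.6%), against 41.1% and 35.4%. These bands are wide, and the groups were not matched for level within a band. Below 10, replicate 3 was highest in 7 of 24 core genes (29.2%), against 35.3% of the outer genes and 24.0% of the others, and replicate 1 was highest in 13 of 24 (54.2%), against 30.3% and 32.5%. Replicate 2 was lowest there in 10 of 24 core genes (41.7%), against 20.2% and 22.7%. The counts also depend on scaling. When each library was divided by its median over expressed genes, replicate 3 was highest in 80 of 103 core genes. Replicate 2 was then lowest in 71 of 103. The shares of the other expressed genes were 48.3% and 39.7%. With the upper quartile in place of the median, the core counts were 65 and 63, against 36.7% and 30.6% of the others. Since the libraries are of the same condition, what sets them apart was not tested.

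**Figure D5:**
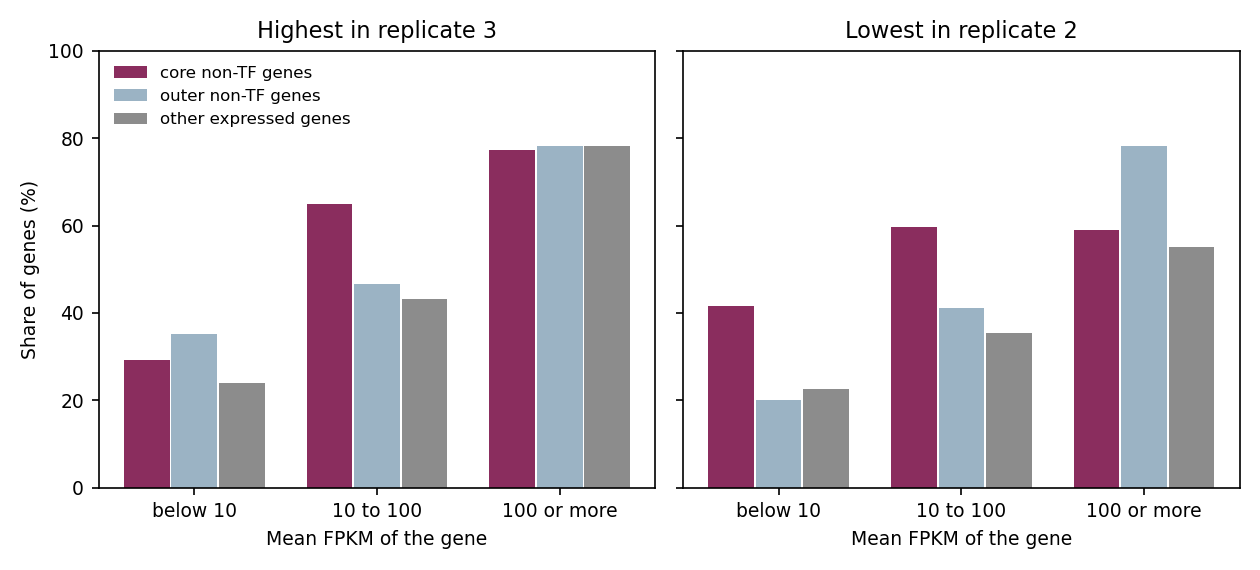
Share of genes (%) whose highest value is in replicate 3 (left) and whose lowest value is in replicate 2 (right), for core non-TF, outer non-TF and other expressed genes, by mean FPKM of the gene. Between FPKM 10 and 100 the core genes have the highest shares, 64.9% and 59.6%, while at 100 or more all groups are near 78% in the left panel.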

How the data were processed

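RNA-seq of TM-1 leaves gave 3 libraries of 1 group. After trimming (fastp) and alignment to the TM-1 genome (HISAT2), the authors computed the deposited FPKM per gene with StringTie on a CottonGen annotation, with tool versions not given in the sources used here. No test for counts applies to FPKM, and mapping of reads shared by homeologs can move the values. No further scaling was applied. Module genes, kME and biased TFs are the study's lists, and the pair lists were held in part. Members and settings were chosen with earlier results of these data known. Group medians were compared within libraries on log2(FPKM + 1) by an exact two-sided sign-flip test over 3 libraries, without a filter other than a mean FPKM of 1 for expressed genes. Correlations carry no p. The summaries were tested on simulated data. Named genes were, by rule, the 10 highest and 5 lowest members, the 5 of highest kME, the 5 on each side of the threshold, those with a listed homeolog, the 3 most variable and those within 15 gene numbers of each other. Alternatives covered the pseudocount, filter, statistic, kME threshold, scaling and leaving out each library. Python 3.11.15, numpy 2.4.6 and pandas 2.3.3 were used. ChIP-seq and other tissues were not analysed here.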

Additional observations from a re-analysis of the deposited data

How the results depend on the processing

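At a kME threshold of 0.85 (157 genes) the median FPKM of the core was 21.2, the share at FPKM 10 or more 72.6%, the number of members above their homeolog 17 of 17, and 92 genes were highest in replicate 3. At a threshold of 0.95 (18 genes, 0 with a listed homeolog) the median was 57.3 FPKM and the share 75.9%, while 11 genes were highest in replicate 3 and 12 lowest in replicate 2. These counts move because more or fewer genes are members. The gap between core and outer genes, 0.72, was 0.62 and 1.79 at these thresholds and between 0.67 and 0.76 without any 1 library. The gap to the hub TFs was 0.01 at 0.85, 1.64 at 0.95, where only 8 hub TFs remain, and 0.69 with means. The gap to the other expressed genes was 1.49 at 0.85 and 2.88 at 0.95. It was 1.31 when only genes at a mean FPKM of 5 or more were kept on both sides. The excess of D over A was reversed, at -0.058, with means in place of medians, and was 0.24 to 0.31 without any 1 library. Pearson's r in place of rho was 0.0681 in the core and 0.221 over all non-TF genes of the module. Among the named genes, the mean of Gh_D12G1817 was 1.46 to 3.20 FPKM without any 1 library. Without any 1 library, the core median stayed between 22.8 and 24.3 FPKM. The library order, with its scalings and thresholds, was examined only after seeing the data. No paired analysis was possible because there is a single condition and no sample groups exist to pair, while gene groups were compared within each library. With 3 libraries the exact sign-flip test could not pass 0.05, and genes below FPKM 10 were measured least precisely.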
